A study of Mus musculus with 6 samples.

Results

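Vomeronasal receptor genes were examined on arrays of mouse KLS cells, the Kit+ Sca-1+ bone marrow fraction without lineage markers that holds blood stem cells and early progenitors. A probe set, the unit in which the array reports a stretch of transcript, was counted as a vomeronasal receptor where the platform annotation gave it exactly 1 gene symbol and that symbol, as given or updated to its current name, began with Vmn1r or Vmn2r. This gave 234 of 22103 named genes and 1059 of 318760 probe sets with 1 symbol. They comprised 127 Vmn1r genes on 357 probe sets and 107 Vmn2r genes on 702 probe sets. The platform itself used the names Vmn2r for 100 genes and used older V1r names for the other family, so all 127 Vmn1r genes entered through updated names. By symbol, 3 Vmn1r and 12 Vmn2r members were pseudogenes. The genes were selected on their measured difference between the genotypes in these arrays, so that difference is given below as values and was not tested.

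The groups were 3 arrays of KLS cells from wild-type mice and 3 arrays of KLS cells from Dnmt3a+/- mice, in which 1 copy of Dnmt3a, an enzyme that places new DNA methylation, is disrupted. All 6 samples were otherwise labelled alike, and neither age, sex, the design of the allele nor a treatment was given in the labels. Total RNA was extracted with TRIzol, amplified as whole-transcript cDNA from 20 ng and labelled with biotin. Whether the 3 samples of a genotype came from separate animals is not stated, so the spread between them may be partly technical. By its title, the study concerns loss of 1 Dnmt3a copy in blood-forming cells, and the comparison here asks where the vomeronasal receptor probe sets stand between the genotypes.

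The vomeronasal organ, a sensory tissue of the nose, detects pheromones and other social chemical cues. Each of its sensory neurons expresses one or very few receptor genes: neurons of the apical layer use the Vmn1r family (V1R) with the G protein subunit Gnai2, and those of the basal layer use the Vmn2r family (V2R), which has a long extracellular ligand-binding domain, with Gnao1. Both signal through phospholipase C to the channel Trpc2. The genes lie in clusters of close copies, and blood stem and progenitor cells are not known as a site where these receptors act.

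On the arrays as a whole, the median intensity ran from 59.8 to 61.6, and the number of arrays limits the precision. Dnmt3a was lower on every Dnmt3a+/- array (8.38, 8.20 and 8.20) than on the wild-type arrays (8.51, 8.70 and 8.50, log2 difference -0.31, SE 0.12). These Dnmt3a values average its 36 probe sets brighter than the table's median level. With all probe sets averaged instead, 20.2% of genes with levels from 7.79 to 8.44 were also lower in this way. Their median difference was -0.16. Kit was bright on all arrays (10.59 to 10.80), as was Ly6a, which encodes Sca-1 (8.30 to 8.66). Dnmt3a+/- replicate 2 stood apart: its mean Pearson correlation with the other arrays across 20059 genes was 0.904, against 0.938 to 0.949 for the others. There, the median deviation from wild-type was 0.15 in the tenth of genes with the lowest levels and -0.27 in that with the highest, so dim genes tended to read higher. Results are therefore also given without it. No gene passed an adjusted p of 0.05 (limma, 0 of 20059 genes, smallest adjusted p = 0.535, with 1502 genes at an unadjusted p under 0.05), and the variance trend with robust estimation also left 0. With all probe sets averaged, 0 of 22103 genes passed in limma (smallest adjusted p = 0.0528, with 1619 genes at an unadjusted p under 0.05). In bulk samples, fewer cells of a type and less RNA per cell cannot be told apart.

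Most receptor probe sets were dim. Of the 1059, 149 (14.1%) had a mean over the 6 arrays that exceeded the table's median level (log2 5.89), where 69.4% of all named probe sets did. A gene value was the mean log2 intensity of the gene's probe sets, computed over all of them and again over those above that median. In the first form, every member had a value, and 208 of 234 (88.9%) lay in the 2 dimmest of 10 equal-sized level bins of all genes. In the second form 92 genes had a value, 32 Vmn1r and 60 Vmn2r, and 60 of the 92 rested on 1 probe set. A dim intensity was not shown to be receptor RNA, since no background level of the array was used here, and which of a pair of probe sets is brighter says nothing about amount.

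Just below the median lay a Vmn2r93 probe set, with a level of 5.88 and a difference of 0.84, and a Vmn1r1 probe set at 5.89 and -0.07. Just above it lay a Vmn1r90 probe set at 5.90 and -0.16, and a Vmn2r1 probe set at 5.90 and 0.26. These 4 values straddle the threshold without a common direction.

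With all probe sets averaged, the receptor genes did not stand out from other dim genes. Their median difference, Dnmt3a+/- minus wild-type, was 0.07 on the log2 scale (quartiles -0.07 and 0.20, range -0.76 to 1.43), and 148 of 234 were positive (63.2%). Over all 22103 genes the median was -0.02 and 45.8% were positive, but the sign of the difference varied with level: it was 0.08 in the 2 dimmest bins and -0.14 in the brightest. After subtracting the median of all genes in the same level bin, the receptor median was -0.0011. The median SD within a genotype was 0.264 for the receptors and 0.186 for all genes, and the receptors exceeded genes of the same level by 0.024.

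The families taken apart gave like medians. Vmn1r genes had a median difference of 0.06 (75 of 127 positive) and Vmn2r genes one of 0.08 (73 of 107 positive), or -0.015 and 0.0078 against genes of the same level. The 100 genes that the platform itself names Vmn2r also had 0.08. In 17 members every Dnmt3a+/- array lay above every wild-type array, 6 Vmn1r and 11 Vmn2r, where 6.26% of all genes did so. In 9 members, 7 Vmn1r and 2 Vmn2r, every Dnmt3a+/- array lay below, where 8.96% of all genes did so. Among all genes of the 2 dimmest bins, which hold most members, these shares were 9.52% and 2.85%, beside 7.26% and 3.85% of the members. In the other 208 members the genotypes overlapped. Without Dnmt3a+/- replicate 2 the median difference of all members was 0.04.

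By level, 180 members lay in the dimmest bin, with a median difference of 0.07 beside 0.07 for all 2211 genes there. In the second bin 28 members had 0.06 beside 0.09. In the third bin 10 members had 0.19 beside 0.08. The 7 brighter bins held 16 members in all.

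The medians by array show how far this rests on single arrays. As a deviation from each gene's wild-type mean, all members read 0.09, -0.05 and -0.02 on the wild-type arrays and 0.02, 0.10 and 0.07 on the Dnmt3a+/- arrays. Wild-type replicate 1 thus lay above 2 of the 3 Dnmt3a+/- arrays, and the genotypes overlapped. In the Vmn2r family alone wild-type replicate 1 was the highest of all, at 0.11.

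**Figure D1:**
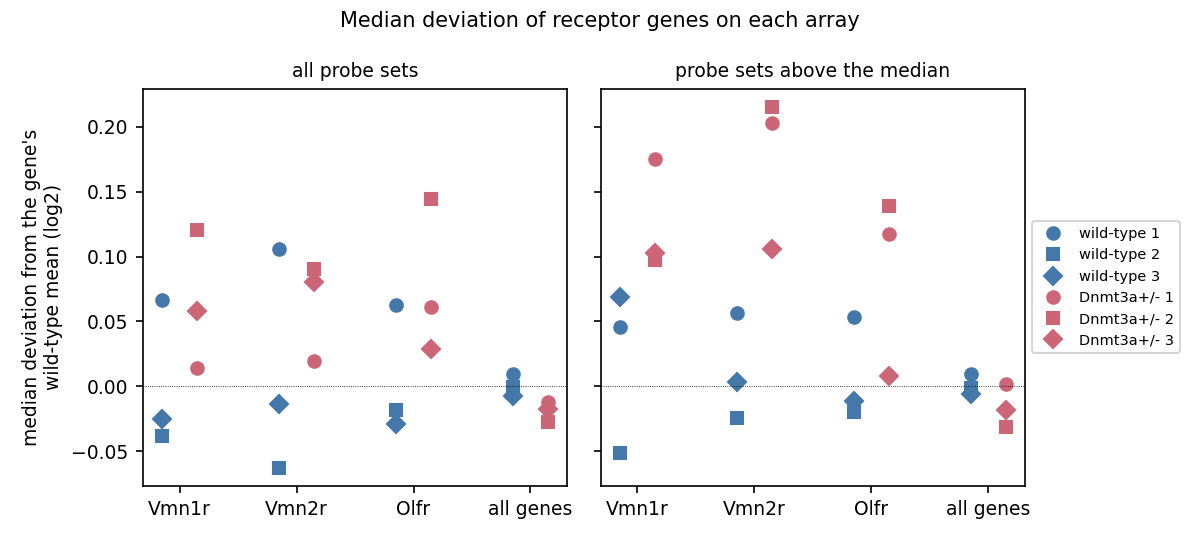
Median deviation (y axis, log2) of Vmn1r, Vmn2r, olfactory receptor (Olfr) and all genes from each gene's wild-type mean, with 1 point per array and no error bars; the left panel averages all probe sets and the right panel those above the median level. In the left panel wild-type replicate 1 overlaps the Dnmt3a+/- arrays, while in the right panel the Vmn1r and Vmn2r medians of all Dnmt3a+/- arrays lie above those of the wild-type arrays.

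Among the probe sets above the median level, the receptors read higher in Dnmt3a+/- cells. The 92 genes with such probe sets had a median difference of 0.17, and 0.13 after subtracting genes of the same level, beside -0.02 for all 20059 genes. These are values of a selected subset: a probe set could pass the filter by being bright in 1 genotype. When the filter used the wild-type means alone, the median was 0.10 (95 genes), and when it used the Dnmt3a+/- means alone, it was 0.19 (92 genes). Against genes of the same level, those 2 choices gave 0.12 and 0.12.

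Both families shared the direction, with 0.09 for the 32 Vmn1r and 0.19 for the 60 Vmn2r genes. On the wild-type arrays the 92 genes read 0.05, -0.03 and 0.02, and on the Dnmt3a+/- arrays 0.19, 0.19 and 0.11. Here every Dnmt3a+/- array lay above every wild-type array. The median was 0.13 without Dnmt3a+/- replicate 2 and stayed between 0.13 and 0.17 when any 1 array was left out. Non-overlapping values were found for 21 genes that were higher in Dnmt3a+/- cells, where 6.74% of all genes did so, and for 2 that were lower, Vmn1r55 and Vmn2r56, where 9.05% did. Without Dnmt3a+/- replicate 3 the first count was 36, and with fewer arrays genotypes overlap less often. The shares over all genes depend on level. With all probe sets averaged, 9.09% of genes in the dimmest bin were higher and 3.48% lower, against 0.95% and 19.2% in the brightest. Shares of genes at the level of the 92 were not computed, so the counts are not set against genes of like level.

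**Figure D2:**
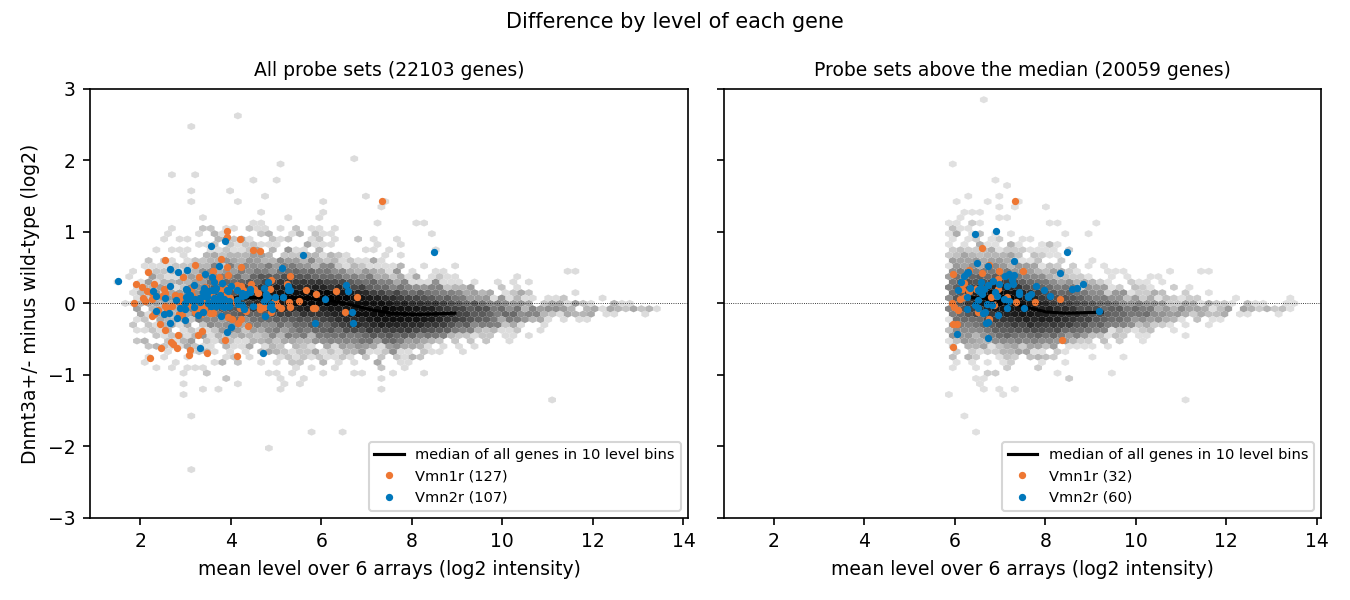
Difference between genotypes (y axis, log2) against mean level over 6 arrays (x axis, log2 intensity) for all genes (grey hexagons, darker for more genes), Vmn1r genes (orange) and Vmn2r genes (blue), with all probe sets averaged on the left and those above the median on the right. The black line is the median of all genes in 10 level bins; on the left the receptors crowd at the dim end around that line, and Vmn1r183 stands alone at 1.43.

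At the level of single probe sets, 596 of the 1059 (56.3%) had a higher Dnmt3a+/- mean, with a median difference of 0.06, beside 45.0% of all named probe sets, most of which are brighter. In 87 of them (8.22%) every Dnmt3a+/- array was above every wild-type array, and in 42 (3.97%) below, where 4.70% and 6.82% of named probe sets did so. Of the 149 above the median level 108 (72.5%) had a higher Dnmt3a+/- mean, beside 42.0% of all named probe sets above it. Of these 149, 26 were non-overlapping and higher and 2 lower, where 4.27% and 7.62% of all named probe sets above it did so. Within that range the level was not matched: in gene values the median level was 6.75 for the receptors and 7.36 for all genes. Of the 910 not above the median level, 488 (53.6%) had a higher Dnmt3a+/- mean, beside 51.8% of all named probe sets not above it. Of these 910, 61 (6.70%) were non-overlapping and higher and 40 (4.40%) lower, where 5.67% and 5.02% of all named probe sets not above it did so.

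Probe sets of 1 receptor often disagreed. Of the 87 members with at least 5 probe sets, 4 had all of them on 1 side, each with 5 probe sets. Vmn1r12, Vmn2r28 and Vmn2r29 were higher throughout and Vmn1r55 was lower throughout. The share over all genes with as many probe sets was not computed, so neither the disagreement nor these 4 genes is shown to be particular to receptors. Vmn1r90, with 20 probe sets, had 13 higher, and its differences ran from -0.76 to 0.61. Vmn2r11 had a mean difference of -0.40 over 5 probe sets, while the 1 above the median level was higher by 0.56 with no overlap.

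**Figure D3:**
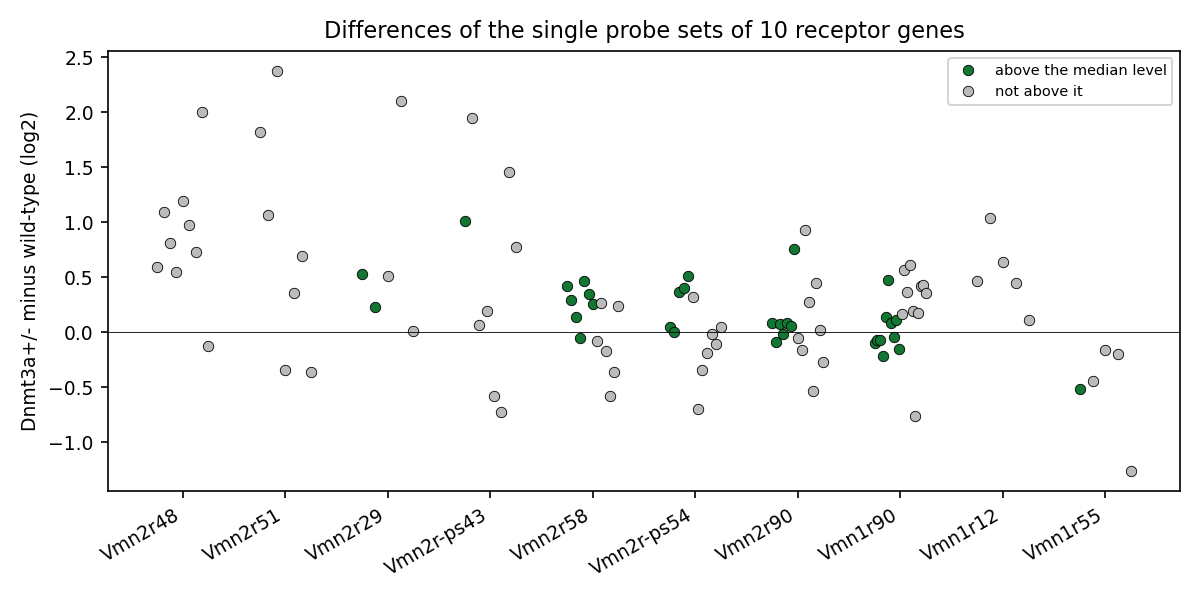
Differences between genotypes (y axis, log2) of the single probe sets of 10 receptor genes (x axis), green where the probe set lies above the median level and grey where it does not. The probe sets of Vmn2r29 and Vmn1r12 all lie above 0 and those of Vmn1r55 below it, while those of Vmn2r58, Vmn2r-ps54 and Vmn1r90 lie on both sides.

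Vmn2r48, Vmn2r51 and Vmn2r29, all V2R genes, had the highest differences among members with at least 3 probe sets whose genotypes did not overlap. Vmn2r48 read 3.49, 3.49 and 3.32 on the wild-type arrays against 4.59, 4.43 and 3.88 on the Dnmt3a+/- arrays, a difference of 0.87 (SE 0.19), and 8 of its 9 probe sets were higher. Vmn2r51 read 3.17, 3.10 and 3.22 against 3.75, 3.98 and 4.16, a difference of 0.80 (SE 0.14), and 5 of 7 probe sets were higher. Vmn2r29 read 5.11, 5.39 and 5.30 against 5.70, 6.11 and 6.02, a difference of 0.68 (SE 0.15), with all 5 probe sets higher. In each of the 3 genes all Dnmt3a+/- arrays lay above all wild-type arrays. The range over single probe sets was wide, from -0.13 to 2.0004 in Vmn2r48, from -0.37 to 2.38 in Vmn2r51 and from 0.0073 to 2.11 in Vmn2r29. Over the 2 probe sets of Vmn2r29 above the median level the difference was 0.38 (SE 0.17), with overlap. The other 2 genes had none above it.

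The start regions of these genes are shown because these genes had the highest non-overlapping values and are close copies. The windows are the 250 bases before the annotated start, from RefSeq (GRCm38.p6), printed 5′ to 3′ on the gene's strand, which is the minus strand in all. Vmn2r48 lies at chr7:9953586-9953835, Vmn2r51 at chr7:10105660-10105909 and Vmn2r29, at one of its 2 annotated starts, at chr7:7247329-7247578. Capitals mark a stretch of 57 bases that all 3 hold.
Vmn2r48: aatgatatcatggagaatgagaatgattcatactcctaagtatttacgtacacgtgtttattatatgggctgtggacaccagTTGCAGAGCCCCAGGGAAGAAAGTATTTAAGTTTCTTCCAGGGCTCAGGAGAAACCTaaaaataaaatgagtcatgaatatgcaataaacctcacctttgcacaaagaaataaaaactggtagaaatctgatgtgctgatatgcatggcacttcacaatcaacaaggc
Vmn2r51: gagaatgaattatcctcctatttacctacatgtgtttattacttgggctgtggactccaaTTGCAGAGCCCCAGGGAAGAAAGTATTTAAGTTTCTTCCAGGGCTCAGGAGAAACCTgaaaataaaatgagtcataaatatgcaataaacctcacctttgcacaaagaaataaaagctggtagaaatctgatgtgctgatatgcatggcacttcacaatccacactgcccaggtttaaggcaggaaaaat
Vmn2r29 other start: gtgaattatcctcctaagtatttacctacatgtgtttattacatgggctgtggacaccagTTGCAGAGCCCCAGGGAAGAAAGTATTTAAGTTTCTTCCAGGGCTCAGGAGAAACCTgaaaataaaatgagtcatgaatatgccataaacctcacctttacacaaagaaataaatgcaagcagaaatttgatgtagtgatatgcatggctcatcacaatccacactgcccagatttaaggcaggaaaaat
Identity was 86.8% between Vmn2r48 and Vmn2r51, 84% between Vmn2r48 and Vmn2r29 and 92% between Vmn2r51 and Vmn2r29. Of the 2 Vmn2r29 windows, the one more like Vmn2r51 was chosen for these values and for the stretch. The window at the second Vmn2r29 start, printed further below, had 53.6% identity with Vmn2r51. The 57-base stretch, on either strand, was found in 10 of 32851 windows (0.0304%), all of Vmn2r genes. Of these 10 genes 5 were measured as members. Vmn2r29, Vmn2r42, Vmn2r48 and Vmn2r51 were higher on all Dnmt3a+/- arrays, by 0.68, 0.31, 0.87 and 0.80, where 6.26% of all genes did so, and Vmn2r30 differed by 0.11 with overlap. Vmn2r42 rests on 1 probe set with a mean level of 1.504, the lowest gene level in the table. The stretch was chosen after these values were seen, and close copies can share array signal, so the 5 values are not separate measurements of equal weight.

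Whether a probe set named for one of these genes also reads its copies was not tested, because the probe sequences were not used here. The annotation itself marks some as shared: 373 further probe sets carried only vomeronasal receptor symbols, but several of them, and were not counted above. Their median difference was 0.14, and 235 (63.0%) had a higher Dnmt3a+/- mean, beside 51.9% of all probe sets. Of the 373, 40 were non-overlapping and higher (6.27% of all probe sets did so) and 11 lower (5.30%). The 39 among them that name Vmn2r48 or Vmn2r51 had a median of 0.21, with 27 higher. The 6 that name both of these genes and no other had a median of 0.00, with 3 higher and 3 lower.

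The other annotated start of Vmn2r29, at chr7:7278290-7278539 and 30961 bases away, was the only receptor window with at least 10 CG pairs, the pair of bases at which DNA methylation is placed in mammals. Its 17 CG are in capitals here. Beside it stand Vmn1r90 (chr7:14562172-14562421), the only Vmn1r gene with at least 3 probe sets above the median level, and Vmn2r58 (chr7:41872671-41872920) and Vmn2r120 (chr17:57545315-57545564), the V2R genes with the highest and the lowest difference among the members of that kind that had a window. All 4 are on the minus strand.
Vmn2r29 CG-rich start: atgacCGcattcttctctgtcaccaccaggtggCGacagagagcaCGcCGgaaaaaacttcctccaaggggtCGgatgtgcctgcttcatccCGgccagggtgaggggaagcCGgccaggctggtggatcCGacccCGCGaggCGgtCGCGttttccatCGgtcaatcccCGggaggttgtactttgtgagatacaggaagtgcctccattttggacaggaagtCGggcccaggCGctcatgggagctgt
Vmn1r90: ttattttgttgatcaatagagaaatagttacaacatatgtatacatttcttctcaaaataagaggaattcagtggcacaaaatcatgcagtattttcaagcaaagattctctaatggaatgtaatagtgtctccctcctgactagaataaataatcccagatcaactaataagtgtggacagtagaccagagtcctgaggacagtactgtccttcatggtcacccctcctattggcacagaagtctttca
Vmn2r58: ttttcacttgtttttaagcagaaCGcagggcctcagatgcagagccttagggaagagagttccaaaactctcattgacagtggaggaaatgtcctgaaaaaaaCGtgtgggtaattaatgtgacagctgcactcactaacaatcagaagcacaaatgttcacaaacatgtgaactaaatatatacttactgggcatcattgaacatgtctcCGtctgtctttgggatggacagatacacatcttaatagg
Vmn2r120: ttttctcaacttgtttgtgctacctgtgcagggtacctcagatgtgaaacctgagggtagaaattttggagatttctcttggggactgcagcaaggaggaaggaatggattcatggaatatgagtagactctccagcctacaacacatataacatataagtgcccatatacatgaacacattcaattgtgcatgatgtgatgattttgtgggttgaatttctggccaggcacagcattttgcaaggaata
Over the 203 members with a window the median was 1 CG in 250 bases, and 61.3% of windows held at least 1. Over all 32851 windows of RefSeq genes the median was 6, 92.1% held at least 1 and 37.8% held at least 10. Olfactory receptor windows, 948 in all, also had a median of 1. CG was counted as the letters CG, which read the same on both strands. No methylation was measured here.

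Further high values were found among V1R genes, 2 of them on 1 probe set each. Vmn1r183, with 1 probe set, had the highest difference of all members: it read 6.34, 6.61 and 6.92 on the wild-type arrays against 8.17, 8.17 and 7.82 on the Dnmt3a+/- arrays (1.43, SE 0.17), and the genotypes did not overlap. Vmn1r201, with 3 probe sets, read 3.71, 3.23 and 3.32 against 3.58, 5.60 and 4.12, a difference of 1.01 (SE 0.46). Its genotypes overlapped, and without Dnmt3a+/- replicate 2 the difference was 0.43. Vmn1r12, with 5 probe sets, read 2.85, 2.86 and 3.10 against 3.68, 3.29 and 3.46 (0.54, SE 0.15), with no overlap. None of its probe sets was non-overlapping alone, and none lay above the median level. Vmn1r216, on 1 probe set, read 3.74, 3.50 and 3.14 against 4.01, 3.9999 and 4.25, also without overlap (0.63).

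Single bright probe sets gave 3 more members at least 1.5-fold apart without overlap. The pseudogene Vmn2r-ps43 read 6.47, 6.29 and 6.47 on the wild-type arrays against 7.19, 7.53 and 7.54 on the Dnmt3a+/- arrays on its 1 probe set above the median (1.01, SE 0.14), and the mean of all its 8 probe sets differed by 0.52. Vmn2r60 read 6.16, 5.98 and 5.77 against 6.20, 7.12 and 7.49 (0.97, SE 0.30), so its lowest Dnmt3a+/- array lay just above the highest wild-type array. Over all 6 of its probe sets the difference was 0.16. Vmn1r59 read 5.88, 6.29 and 6.47 against 7.38, 6.85 and 6.75 (0.78, SE 0.21), and 0.27 over its 3 probe sets. Among all genes, 0.508% were higher in this way and 0.359% lower in the table of probe sets above the median, and 0.575% and 0.556% in the table of all probe sets.

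Of the 9 receptors that were lower without overlap, 7 were V1R genes. Vmn1r50 read 4.51, 4.58 and 4.41 on the wild-type arrays against 3.67, 4.25 and 3.38 on the Dnmt3a+/- arrays (-0.73, SE 0.21). None of its 3 probe sets was non-overlapping alone, and the 1 above the median level differed by -0.29 (SE 0.39), with overlap. Vmn1r55 read 4.08, 3.90 and 4.43 against 3.67, 3.46 and 3.73 (-0.52, SE 0.16), with both of its non-overlapping probe sets lower. In the gene values of both, all wild-type arrays were the higher ones. Vmn1r42 read 3.47, 3.55 and 3.49 against 3.21, 2.99 and 2.98 (-0.44), and Vmn1r214 read 3.01, 3.09 and 3.03 against 2.50, 2.63 and 2.69 (-0.44). The wild-type arrays of both lay within 0.1 of each other and above every Dnmt3a+/- array.

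Another 3 members, on 1 or 2 probe sets each, were lower by at least 1.5-fold without overlap. Vmn1r202 read 2.93, 2.68 and 2.72 against 2.05, 2.24 and 2.15 (-0.63). Vmn1r232 read 3.35, 3.37 and 3.53 against 2.68, 3.06 and 2.57 (-0.65). Vmn2r84, a V2R gene, read 3.70, 3.46 and 3.70 against 2.93, 3.44 and 2.63 (-0.62), where wild-type replicate 2 and Dnmt3a+/- replicate 2 nearly met. No probe set of Vmn1r232 or Vmn2r84 was non-overlapping alone. Vmn1r22 was lower by 0.53 with overlap, which rested on wild-type replicate 2, since without it the difference was -0.04.

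**Figure D4:**
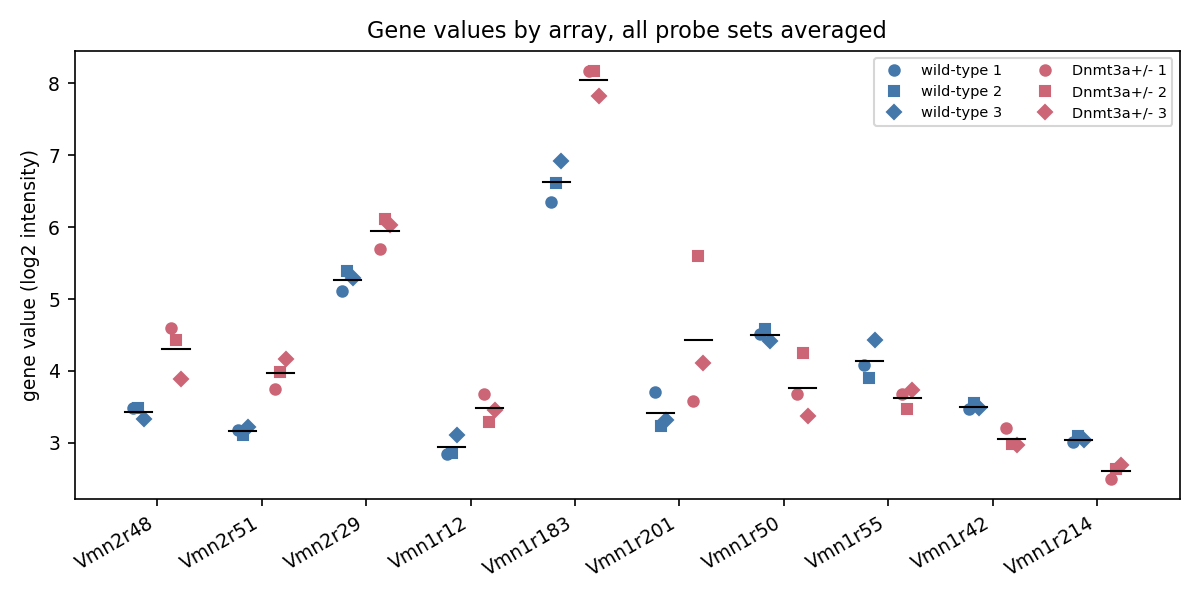
Gene values (y axis, log2 intensity, all probe sets averaged) of 10 receptor genes on each array, wild-type in blue and Dnmt3a+/- in red, with the mean of 3 arrays as a black bar and a symbol per replicate. Levels of different genes are not comparable; within a gene the genotypes are separate for 9 of the 10, and Vmn1r201 overlaps, with Dnmt3a+/- replicate 2 at 5.60.

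The 8 members with at least 3 probe sets above the median level showed smaller differences. Vmn2r58, over 7 such probe sets, read 6.80, 6.85 and 6.88 on the wild-type arrays against 7.01, 7.09 and 7.23 on the Dnmt3a+/- arrays (0.27, SE 0.11). The pseudogene Vmn2r-ps54, over 5, read 7.26, 7.14 and 7.07 against 7.50, 7.43 and 7.33 (0.26, SE 0.11). These 2 did not overlap. Over all their probe sets the differences were 0.09 and 0.03.

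In the other 6 the genotypes overlapped. Vmn2r-ps125 differed by 0.40 (SE 0.20), and by 0.22 without wild-type replicate 1. Vmn2r99, Vmn2r-ps134 and Vmn2r90 differed by 0.17, 0.14 and 0.13, and Vmn2r120 by -0.03. These rested on single arrays: Vmn2r99 was 0.09 without Dnmt3a+/- replicate 1, 0.10 without wild-type replicate 2 and 0.29 without wild-type replicate 3 or Dnmt3a+/- replicate 3. Vmn2r-ps134 ran from -0.0091 without wild-type replicate 2 to 0.28 without wild-type replicate 1, with 0.22 and 0.07 without Dnmt3a+/- replicates 1 and 2. Vmn2r90 was 0.04 without wild-type replicate 3, and Vmn2r120 ran from -0.07 to 0.03. Vmn1r90, whose 10 probe sets make it the best covered receptor of this level, read 7.41, 7.21 and 7.43 against 7.43, 7.38 and 7.28, a difference of 0.02 (SE 0.11).

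Receptors with a known ligand or role, named for that role, gave values that depended on the probe sets used. Vmn2r116, the receptor of the tear peptide ESP1, read 4.16, 3.92 and 4.08 on the wild-type arrays against 4.34, 4.20 and 4.19 on the Dnmt3a+/- arrays over its 2 probe sets (0.19, SE 0.12), with no overlap. Its 1 probe set above the median level differed by 0.39 (SE 0.16), with overlap. Vmn2r26, a receptor of peptide ligands of MHC class I molecules, read 5.22, 4.45 and 5.01 against 5.17, 5.55 and 5.45 (0.50, SE 0.21), with overlap. Its 1 probe set above the median differed by 0.41 (SE 0.12), without overlap. Vmn2r1, which belongs to the small V2R group that many basal neurons share, differed by -0.08 (SE 0.14) over 6 probe sets and by 0.09 (SE 0.14) over the 2 above the median, so its sign changed with the filter.

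Receptor genes that are neighbours in the RefSeq order, with at most 10 other genes between them, formed 31 runs. The 16 runs with at least 6 members held 209 members, and their median differences ran from -0.09 to 0.20, 15 of them above 0. No level was subtracted here, and all genes of the 2 dimmest bins, where 88.9% of members lie, had a median of 0.08. The highest was the run from Vmn2r-ps50 to Vmn1r71, which holds Vmn2r48 and Vmn2r51, with 8 of 10 members positive. In the run from Vmn2r111 to Vmn2r117 all 7 members were positive (median 0.19). The run from Vmn1r-ps25 to Vmn1r54, which holds Vmn1r50 and Vmn1r42, was the lowest, with 4 of 11 positive. Neighbours are close copies, so they were not taken as separate observations.

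Other chemosensory receptor families were compared in the same way. The 1061 olfactory receptor genes (Olfr) had a median difference of 0.09 over all probe sets, 63.4% positive, and 0.03 against genes of the same level. Of these genes 70 (6.60%) were non-overlapping and higher and 34 (3.20%) lower, beside 6.26% and 8.96% of all genes. By array they read 0.06, -0.02 and -0.03 on wild-type against 0.06, 0.14 and 0.03 on Dnmt3a+/- arrays, so the genotypes overlapped there too. With probe sets above the median, 383 Olfr genes had 0.11, and 0.07 against genes of the same level. Here 38 of them (9.92%) were non-overlapping and higher and 6 (1.57%) lower, beside 6.74% and 9.05% of all genes. The 14 trace amine receptors (Taar) had 0.06, the 4 vomeronasal formyl peptide receptors (Fpr-rs) 0.14, the 37 taste receptors (Tas1r and Tas2r) -0.04, and the 9 H2-Mv genes, class Ib MHC molecules found with V2R receptors in basal neurons, -0.04. No test of a difference between these families was run.

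The genes through which these receptors signal did not move in 1 direction. Of 27 genes of vomeronasal transduction, receptor transport and neuron identity, 18 had a higher Dnmt3a+/- mean with probe sets above the median (median 0.09). Over all genes 45.7% did so. None of the 27 passed the test over all genes. Trpc2, the transduction channel, read 7.58, 7.65 and 7.61 on the wild-type arrays against 7.65, 7.61 and 7.75 on the Dnmt3a+/- arrays over 76 probe sets (0.06, SE 0.10). Its arrays overlapped. Gnai2, the V1R G protein subunit that blood cells also use, differed by -0.13 (SE 0.11), Gnao1, the V2R subunit, by 0.18 (SE 0.22) and Gng8, the gamma subunit of vomeronasal neurons, by -0.31 (SE 0.20), all with overlap. Over all 17 probe sets Gnao1 differed by 0.19 (SE 0.12) without overlap, and Gng8, whose -0.31 rests on 1 probe set, by -0.0070 over all 5. Omp, the olfactory marker protein, differed by -0.20 (SE 0.14), also with overlap.

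In 6 of the 27 the Dnmt3a+/- arrays were all higher, where 6.74% of genes did so, and in 1 all lower, where 9.05% did. Meis2, a homeobox factor of apical neurons, read 7.41, 7.33 and 7.35 against 7.78, 7.77 and 7.75 (0.40, SE 0.10), and the arrays of each genotype lay close together. Rtp2, which helps carry odorant receptors to the cell surface, differed by 0.46 (SE 0.18), Ncam2, an adhesion molecule, by 0.36, Ano1, a calcium-gated chloride channel, by 0.27, Atf5, a factor of sensory neuron maturation, by 0.25 and Tfap2e, a factor of basal neuron identity, by 0.24. Plcb2, a phospholipase C that blood cells also use, was the lower one, at -0.23. With all probe sets averaged 3 of the 27 were non-overlapping and higher (Ano1, Gnao1 and Meis2) and 2 lower (Plcb2 and Emx2), where 6.26% and 8.96% of all genes did so, and Rtp2, Ncam2, Atf5 and Tfap2e then overlapped.

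Markers of other cells were set beside these values. Of 13 markers of vomeronasal and olfactory sensory neurons 12 had probe sets above the median level, with Cnga4 the exception. Their mean level ran from 7.06 to 7.15 on the wild-type arrays and from 7.13 to 7.20 on the Dnmt3a+/- arrays, 2 were non-overlapping and higher (Ncam2 and Tfap2e) and 1 lower (Adcy3), where 6.74% and 9.05% of all genes did so. These 3 overlapped over all probe sets. Of 14 measured markers of mature blood cells 12 had a higher Dnmt3a+/- mean (median 0.20), beside 45.7% of all genes. Cd3e, a T cell gene, and Adgre1, a macrophage gene, were non-overlapping and higher. Csf1r, the macrophage growth factor receptor, was non-overlapping and lower, beside the same 6.74% and 9.05% of all genes. Over all probe sets Cd3e (0.21) and Adgre1 (0.07) overlapped, and Csf1r (-0.86) did not. Their mean level ran from 7.67 to 8.18 in wild-type and from 8.02 to 8.23 in Dnmt3a+/- cells, with overlap. The 8 measured KLS markers had a median of -0.12, and 1 of 8 was positive. Kit (-0.11) was non-overlapping and lower, and 0 were non-overlapping and higher, beside the same shares of all genes. These markers are bright, and bright genes in general read lower. With all probe sets averaged they had a median of -0.11. All genes in level bins 8, 9 and 10, where these markers lie, had medians of -0.14, -0.16 and -0.14. The part of all these markers in the receptor values was not tested.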

How the data were processed

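The authors deposited 1 table of linear intensity values for 1256831 probe sets on 6 arrays, made with RMA in Partek per the submitters' processing notes. RMA corrects background, equalises the distribution over arrays and summarises probes. The sources used here name no version or setting. Such scaling can hide a change shared by most genes. Log2 was taken with no pseudocount. Probe sets with exactly 1 gene symbol in the platform annotation were named, and 4226 of 22296 symbols were updated through the RefSeq gene table (GRCm38.p6). For 8 older V1r names no single current Vmn1r gene was found, so they were left out. The table has no genome build here, and coordinates are those of RefSeq promoter windows only.

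Gene values were the mean log2 value of a gene's probe sets, over all of them and over those above the median. The genotype fit used limma 3.58.1 under R 4.3.3 (lmFit, eBayes, Benjamini-Hochberg), with no covariate, on whole tables of genes. The fit was tested on simulated data with planted changes larger than any receptor gene difference given here. That test did not show whether changes of the size seen here would be found. Each SE is from that fit, and differences are Dnmt3a+/- minus wild-type. The same-level comparison subtracts the median of all genes in the same of 10 level bins. Non-overlapping means that all arrays of 1 genotype lay above all of the other, and size calls needed 1.5-fold as well. Named genes were the 6 highest and 6 lowest members with at least 3 probe sets in each table and every member past both size criteria, plus signalling genes that did not overlap. Others were named for a known ligand or after their values were seen. The members and gene lists were chosen with earlier results of these data known. Alternatives were other filters, summaries and normalizations, a replicate block, the median difference of same-numbered arrays and leaving out each array.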

Additional observations from a re-analysis of the deposited data

How the results depend on the processing

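With all named probe sets the receptor median went from 0.17 to 0.0707, the same-level median from 0.13 to -0.0011, the Vmn2r median from 0.19 to 0.0835, the count of non-overlapping lower genes from 2 to 9, the count at least 1.5-fold apart from 4 to 9 and that of probe sets with a higher Dnmt3a+/- mean from 108 to 596, as more were counted. Filtering on the wild-type means (chosen after seeing the data, as was the next) gave a receptor median of 0.0981 and a Vmn2r median of 0.13, and filtering on the Dnmt3a+/- means a Vmn1r median of 0.17. Above the 75th percentile, 7 genes were non-overlapping and higher and 1 lower, and with at least 3 probe sets 2 and 0, as fewer genes were counted. Cyclic loess, a second quantile normalization and the median of probe sets changed no sign of a group median. Same-numbered arrays did not deviate together (correlations -0.0475, -0.091 and 0.113), and arrays of different numbers gave -0.165 to 0.174. The labels do not say whether same-numbered arrays were handled together. These correlations cannot exclude it, and the main fit treats the arrays as unpaired. Each gene's median of the differences between same-numbered arrays was also taken in place of the mean difference. It gave a receptor median of 0.12 and a same-level median of 0.0723. A replicate block in the fit leaves each mean difference unchanged, as each number occurs in both genotypes. With that block 0 genes passed over all genes. Other causes of these shifts were not tested.

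When 1 array was left out, the probe sets above the median were still those chosen on all 6 arrays. Receptor medians were then 0.13 to 0.17, or 0.04 to 0.09 with all probe sets. Same-level medians were 0.11 to 0.16, Vmn1r medians 0.07 to 0.12 and Vmn2r medians 0.14 to 0.21. Counts ran from 23 to 36 (higher), 2 to 4 (lower), 6 to 9 (1.5-fold) and 95 to 110 (probe sets), and 0 genes passed each time. The lower count was 4 without wild-type replicate 2, wild-type replicate 3 or Dnmt3a+/- replicate 2. Of 259 alternatives over 27 named genes, 8 changed the sign: Vmn1r90 (-0.06 without wild-type replicate 2, -0.02 without Dnmt3a+/- replicate 1), Vmn2r-ps134 (-0.16 with the median of probe sets, -0.0091 without wild-type replicate 2), Vmn2r120 (0.09 with all probe sets, 0.03 without Dnmt3a+/- replicate 2), Vmn2r99 (-0.04 with all probe sets) and Vmn2r11 (0.56 with probe sets above the median, an alternative chosen after seeing the data). Signal near the floor of the array limits the dim receptors.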
